A study of Mus musculus with 32 samples.

Results

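The 6 Cyp4a genes of the mouse whose reads were counted in these livers are Cyp4a10, Cyp4a14, Cyp4a31, Cyp4a32, Cyp4a12a and Cyp4a12b, out of 20076 genes in the count table. They were chosen by name as the members of one enzyme family and are described across 8 groups of mice, with the paralogs whose counts were higher after fasting set against those whose counts were not. All 6 passed the filter on low counts. Of 32 livers, 30 were used: WT LF fed replicate 2 and KO HF fasted replicate 4 were left out because they stood apart from their groups, and their values are given separately.

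The study asked how the liver responds to the loss of medium-chain acyl-CoA dehydrogenase (MCAD, encoded by Acadm), an enzyme of mitochondrial fatty acid oxidation. Male Acadm-knockout (KO) mice and wild-type (WT) littermates on a C57BL/6J background received a low-fat (LF) or a high-fat (HF, palm oil) semisynthetic diet for 6 weeks, and were then either fasted for 16 h or left on the diet (fed). Each mouse gave 1 RNA library from freeze-clamped whole liver, prepared from the 3′ ends of transcripts. WT LF fed and KO HF fasted therefore held 3 mice each and the 6 other groups 4 mice each. The age labels ran from 7.5 to 16 with no unit. The error behind the tests of fold change below is the spread between mice within groups, with 1 estimate per gene shared by all 8 groups. The p of a single contrast therefore does not reflect the spread of its own groups alone.

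Cyp4a enzymes are microsomal cytochromes P450 that hydroxylate fatty acids at the terminal (omega) carbon. The products are turned by alcohol and aldehyde dehydrogenases into dicarboxylic acids, which peroxisomes shorten, so that the pathway handles fatty acids that mitochondria do not oxidise. Cyp4a10 and Cyp4a14 are textbook targets of PPARα, the nuclear receptor that responds to fatty acids during fasting, whereas Cyp4a12a and Cyp4a12b are known as genes expressed more in males than in females, and Cyp4a12a is known to make a hydroxylated derivative of arachidonic acid.

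The 6 genes lie on chromosome 4 (GRCm38), with other genes and pseudogenes of the annotation between some of them, in a cluster that runs from 115299046 to 115621602 and spans 322.6 kb. In order along the chromosome they are Cyp4a12a (115299046 to 115332815), Cyp4a12b (115411624 to 115439034), Cyp4a14 (115486200 to 115496142), Cyp4a10 (115518264 to 115533649), Cyp4a31 (115563649 to 115579015) and Cyp4a32 (115600969 to 115621602). Cyp4a14 is on the minus strand and the 5 others are on the plus strand. Each coding sequence is spread over 12 exons and encodes 507 to 509 amino acids.

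The final 60 coding bases before the stop codon are shown to let the coding sequences of near copies be compared, with capitals for each base that differs from Cyp4a10 (for Cyp4a31, Cyp4a32 and Cyp4a14) or from Cyp4a12a (for Cyp4a12b):
Cyp4a10: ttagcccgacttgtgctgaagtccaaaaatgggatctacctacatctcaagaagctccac
Cyp4a31: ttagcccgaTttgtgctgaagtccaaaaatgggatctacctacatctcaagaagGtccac
Cyp4a32: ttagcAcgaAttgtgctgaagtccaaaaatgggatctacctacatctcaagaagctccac
Cyp4a14: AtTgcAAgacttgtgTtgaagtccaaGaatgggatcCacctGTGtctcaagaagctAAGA
Cyp4a12a: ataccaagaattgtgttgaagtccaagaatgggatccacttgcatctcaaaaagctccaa
Cyp4a12b: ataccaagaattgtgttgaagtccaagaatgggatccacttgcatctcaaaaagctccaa

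Cyp4a31 and Cyp4a32 each differed from Cyp4a10 at 2 of these 60 bases, Cyp4a14 differed at 14, and Cyp4a12a and Cyp4a12b were identical. Over the whole coding sequence Cyp4a12a and Cyp4a12b shared 98.49% of bases, Cyp4a10 and Cyp4a32 97.18%, Cyp4a10 and Cyp4a31 96.59%, and Cyp4a10 and Cyp4a14 75.11%. A read of 50 bases from the last 500 bases of a transcript would match another transcript exactly at 0 of 451 positions for Cyp4a14, at 5.99% of positions for Cyp4a10 and for Cyp4a31, at 37.0% for Cyp4a12a and for Cyp4a12b, and at 66.7% for Cyp4a32. The annotated transcript of Cyp4a32 ends at the stop codon, whereas the 5 others continue for 521 to 943 bases, so that in those 5 the bases shown lie outside the last 500. Over the last 300 bases of the annotated transcripts Cyp4a12a and Cyp4a12b were 95.41% identical and Cyp4a10 and Cyp4a31 92.36%. For Cyp4a10 and Cyp4a32 the value was 43.38%, but it set coding bases of Cyp4a32 against bases after the stop codon of Cyp4a10. As annotated, the transcript end of Cyp4a14 shares no read of this length with the other members, while counts within Cyp4a12a and Cyp4a12b, and within Cyp4a10, Cyp4a31 and Cyp4a32, are uncertain where reads could belong to either gene.

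Of the 6 genes, 1 (Cyp4a32) was matched to a promoter in RefSeq (GRCm38.p6, 250 bases before to 50 after the start). Motifs were searched only in the 250 bases before the start, for Cyp4a32 and for all promoters. Neither the nuclear receptor motif AGGTCA nor the STAT5 element TTCNNNGAA was found in these bases of Cyp4a32. Nor were 2 copies of AGGTCA 1 base apart (the DR1 element to which PPARα binds), also with the fourth base of each copy free. On either strand, 14.0% of 32851 promoters held AGGTCA, 7.02% the STAT5 element and 0.0335% the DR1 element (0.338% with the fourth base free). The result says only that these letters are not in the bases searched.

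The libraries held 2031053 to 4292200 counts per mouse. Values are counts-per-million (CPM) after scaling by TMM, in which 1 CPM is about 3 counts. With a 3′ library each transcript gives fragments from its end, so that CPM were not divided by length. Levels and shares of near copies (Cyp4a10, Cyp4a31 and Cyp4a32, and the Cyp4a12 pair) against other members are uncertain, since reads that match several genes may not have been counted. Acadm, the targeted gene, was at 26 to 94 counts in the 15 KO mice (18.8 ± 8.03 CPM, SD) and at 566 to 2752 counts in the 15 WT mice (453 ± 197 CPM). The 10 hepatocyte markers summed to 45813 to 64116 CPM in fed mice (median 53477) and to 46886 to 71872 CPM in fasted mice (median 54671). Kidney is the other organ known for Cyp4a expression, and of its 10 markers 3 were in the table and 0 exceeded 3 counts in any of the 30 mice. Acinar pancreas markers summed to 18486 CPM in WT HF fasted replicate 2 and to 2710 CPM in KO HF fed replicate 1, and to no more than 61.2 CPM in the remaining livers. Heart markers summed to 613 CPM in KO HF fed replicate 1 and to 352 CPM in WT HF fed replicate 4, and the adrenal cortex markers to 290 CPM in KO LF fasted replicate 3 and 125 CPM in KO LF fasted replicate 4. In whole liver, fewer cells of a type and less RNA per cell cannot be told apart.

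Cyp4a14 was the most abundant member in every fasted mouse and rose with fasting by 31.3-fold on average. In WT LF mice its level was 198, 147 and 53.5 CPM in the fed mice and 20793, 21509, 21002 and 15026 CPM in the fasted mice. In KO LF mice it was 158, 611, 75.2 and 70.4 CPM fed and 41730, 15202, 12725 and 29378 CPM fasted. On the low-fat diet every fasted mouse was thus far above every fed mouse, and KO LF fasted replicate 1 held the highest level of any Cyp4a gene in the series.

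On the high-fat diet the group means of Cyp4a14 were higher in fed mice and lower in fasted mice. Averaged over genotype, neither difference was called by edgeR's quasi-likelihood test (adjusted p = 0.129 fed and 0.0981 fasted). The fed means were 1469 against 133 CPM in WT and 529 against 229 CPM in KO mice, and KO fed mice of the 2 diets overlapped. In WT HF mice Cyp4a14 was at 1683, 955, 2372 and 864 CPM fed and 5060, 1414, 11780 and 8425 CPM fasted. In KO HF mice it was 311, 796, 919 and 91.0 CPM fed and 1111, 12020 and 7758 CPM fasted. The fed and fasted mice overlapped in WT HF, where fasted replicate 2 (1414 CPM, the mouse with the pancreas markers) lay below 2 of the 4 fed mice, and did not overlap in KO HF, where fasted replicate 1 was close above the fed mice.

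Cyp4a10, the second PPARα target of the family, was also higher in all fasted mice than in all fed mice of the same genotype and diet. In LF mice it ranged from 42.2 to 204 CPM over the 7 fed mice (median 62.5) and from 1444 to 3856 CPM over the 8 fasted mice (median 3312). In WT HF mice it was 234, 145, 241 and 224 CPM fed and 1849, 444, 2112 and 1720 CPM fasted, and in KO HF mice 186, 169, 210 and 60.9 CPM fed and 485, 2596 and 2011 CPM fasted. The same 2 HF fasted mice that were low for Cyp4a14, WT replicate 2 and KO replicate 1, were the lowest of their groups for Cyp4a10. Fed and fasted mice did not overlap in any of the 4 combinations of genotype and diet. For all members, overlap is given as a description only, since the share of all genes without overlap was not worked out.

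Cyp4a31 and Cyp4a32, the near copies of Cyp4a10, had far fewer counts. Cyp4a31 was at 1.44, 2.35 and 1.29 CPM in WT LF fed mice and at 85.3, 83.0, 61.2 and 47.6 CPM in WT LF fasted mice, and at 1.28, 1.69, 0.687 and 1.25 CPM in KO LF fed mice and 76.8, 65.9, 45.9 and 91.5 CPM in KO LF fasted mice. On the high-fat diet it was at 3.11, 6.95, 8.64 and 6.05 CPM (WT) and 4.54, 3.20, 6.31 and 1.28 CPM (KO) in fed mice, and at 22.9, 9.03, 25.6 and 32.4 CPM (WT) and 8.05, 68.4 and 69.3 CPM (KO) in fasted mice. Fed and fasted mice did not overlap in any of the 4 combinations, although the LF fed values rest on 2 to 7 counts per mouse.

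Cyp4a32 had the fewest counts, from 0 to 42 per mouse. It was at 1.44, 2.35 and 0.968 CPM in WT LF fed mice and 9.31, 12.0, 8.63 and 4.56 CPM in WT LF fasted mice, and at 0.320, 0.843, 0 and 2.50 CPM in KO LF fed mice and 14.6, 10.8, 14.8 and 14.5 CPM in KO LF fasted mice. In the 8 HF fed mice it lay between 0 and 3.28 CPM (median 1.12) and in the 7 HF fasted mice between 1.505 and 9.87 CPM (median 4.06). Fed and fasted mice were separate on the low-fat diet and overlapped on the high-fat diet in both genotypes. The annotated transcript of Cyp4a32 ends at the stop codon, and whether reads beyond it went uncounted was not tested.

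Cyp4a12a ranked first or second among the members in every fed liver but WT HF fed replicate 3, and its levels in fed and fasted mice covered much the same range. It was at 572, 211 and 327 CPM in WT LF fed mice and 244, 317, 250 and 486 CPM in WT LF fasted mice, and at 238, 267, 194 and 346 CPM in KO LF fed mice and 763, 261, 350 and 435 CPM in KO LF fasted mice. On the high-fat diet it was at 335, 263, 151 and 340 CPM (WT) and 378, 241, 250 and 162 CPM (KO) in fed mice, and at 116, 248, 304 and 316 CPM (WT) and 479, 411 and 321 CPM (KO) in fasted mice. Fed and fasted mice overlapped in all 4 combinations of genotype and diet.

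Cyp4a12b ran lower than its near copy in every mouse. It was at 176, 89.2 and 151 CPM in WT LF fed mice and 151, 186, 136 and 257 CPM in WT LF fasted mice, and at 89.4, 113, 91.0 and 120 CPM in KO LF fed mice and 371, 145, 229 and 242 CPM in KO LF fasted mice. On the high-fat diet it was at 75.8, 53.8, 31.3 and 49.8 CPM (WT) and 173, 73.1, 103 and 86.9 CPM (KO) in fed mice, and at 57.3, 68.1, 149 and 116 CPM (WT) and 200, 210 and 117 CPM (KO) in fasted mice. The feeding states were separate only in KO LF mice and overlapped in the other 3 combinations.

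**Figure D1:**
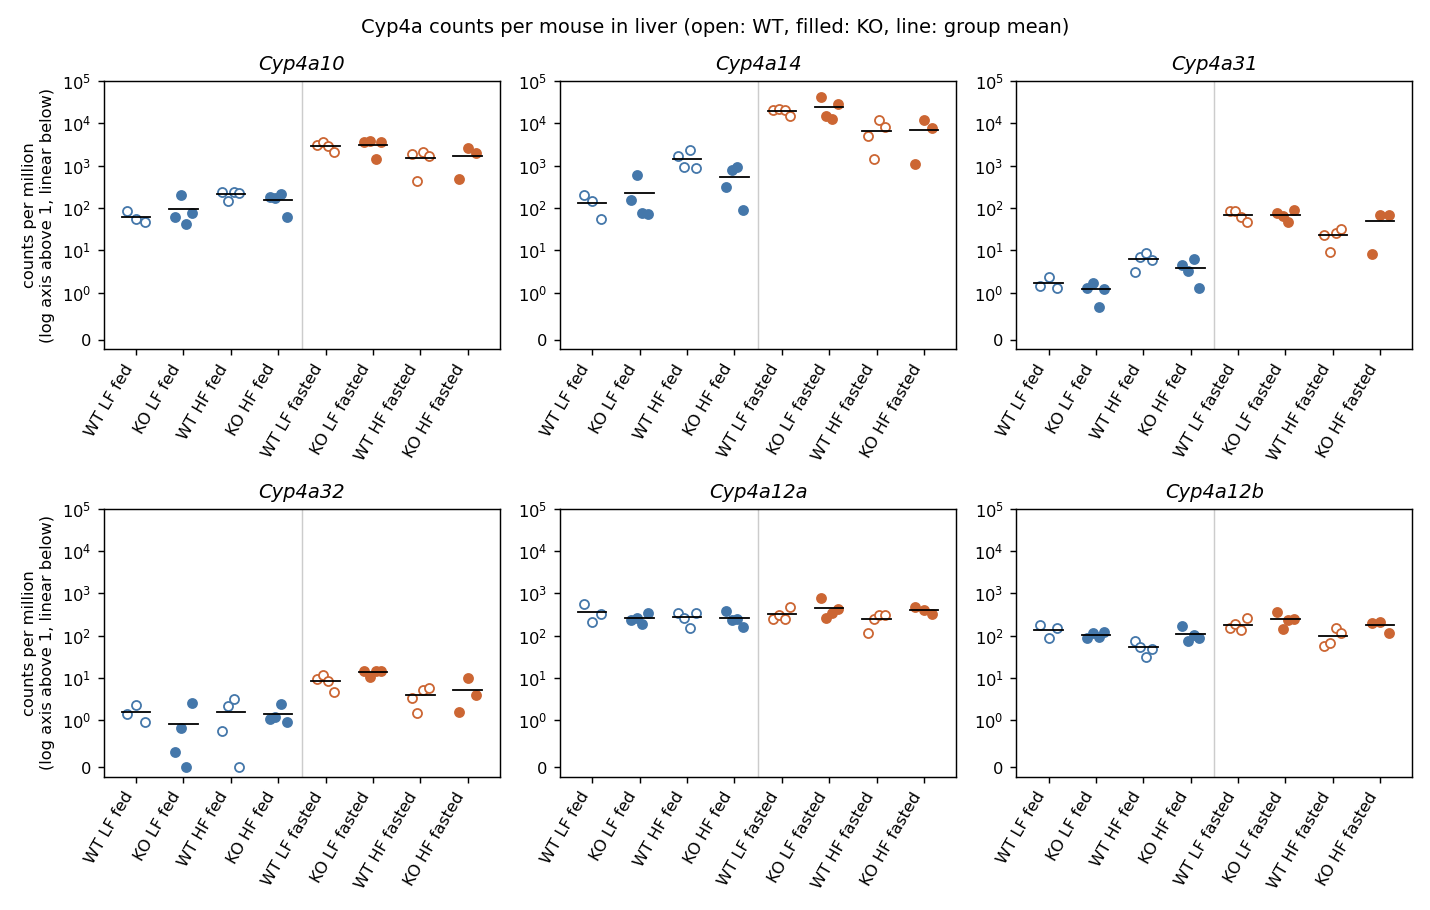
CPM of the 6 Cyp4a genes (1 panel each) in each of the 30 mice, by group, on an axis that is logarithmic above 1 and linear below; open points are WT, filled points KO, blue fed, orange fasted, and the line is the group mean. Cyp4a14 moved from 53.5 to 2372 CPM in fed mice to 1111 to 41730 CPM in fasted mice, while Cyp4a12a stayed between 116 and 763 CPM.

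The first comparison asked which members differed between fasted and fed mice, averaged over genotype and diet (quasi-likelihood test of edgeR, Benjamini-Hochberg adjustment over the 11566 genes tested, called at an adjusted p below 0.05). Of the 6 members 5 were called, all higher in fasted mice, where 18.9% of all genes tested were called in either direction and 9.77% were called higher. Their log2 fold changes ran from 0.28 to 4.97 with a median of 3.24, against a median of −0.0022 over all genes tested. Cyp4a14 rose by 4.97 on the log2 scale (SE 0.40, adjusted p = 6.54e-08), Cyp4a10 by 4.22 (SE 0.27, adjusted p = 7.73e-10) and Cyp4a31 by 4.16 (SE 0.32, adjusted p = 6.82e-11). Cyp4a32 was called with an estimate of 2.33 (SE 0.35), but no fed mouse held more than 11 of its counts. It therefore passed the filter on low counts through fasted mice, where it is high. Its calls for fasting, here and below, are given as descriptions. Cyp4a31 and Cyp4a32 both fell below a filter of 10 counts on average in every group, with which 3 members were called. Cyp4a12b rose by 0.81 (SE 0.18, 1.75-fold, adjusted p = 0.00140). Cyp4a12a had a log2 fold change of 0.28 with a 95% confidence interval from −0.12 to 0.67 (adjusted p = 0.380) and was not called.

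The libraries were run on lanes 7 and 8 according to the labels, and lane 7 held no WT LF fed mouse. Within lane 7 (14 mice, WT HF, KO LF and KO HF) 4 members were called at a background of 2.81% of genes, with log2 fold changes of 3.35 for Cyp4a10, 3.47 for Cyp4a14, 3.33 for Cyp4a31 and 2.32 for Cyp4a32. Within lane 8 (14 mice) 5 members were called at a background of 13.4%, with 4.58 for Cyp4a10, 5.81 for Cyp4a14, 4.47 for Cyp4a31, 3.47 for Cyp4a32 and 0.86 for Cyp4a12b. Cyp4a12b had a log2 fold change of 0.75 in lane 7 (adjusted p = 0.149), and Cyp4a12a had 0.30 in both lanes. When the counts of Cyp4a12a and Cyp4a12b were summed, the sum had a log2 fold change of 0.42 (adjusted p = 0.119) and the call of Cyp4a12b was lost.

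By genotype and diet, the fasting effect was called in most members on the low-fat diet and in few on the high-fat diet. In WT LF mice 4 members were called (background 7.54%), with log2 fold changes of 7.20 for Cyp4a14, 5.56 for Cyp4a10, 5.34 for Cyp4a31 and 2.41 for Cyp4a32. In KO LF mice 5 members were called (background 13.8%), with 6.76 for Cyp4a14, 5.81 for Cyp4a31, 5.04 for Cyp4a10, 3.80 for Cyp4a32 and 1.25 for Cyp4a12b. The call of Cyp4a32 in WT LF mice was lost without replicate 1, 2 or 3 of every group, and that of Cyp4a12b in KO LF mice with all 32 mice, with WT LF fed replicate 2 put back, without replicate 1 or 4, and with its counts summed with those of Cyp4a12a (adjusted p from 0.0656 to 0.339 by edgeR). In WT HF mice only Cyp4a10 was called (2.86, adjusted p = 0.0166, background 0.424%), and in KO HF mice Cyp4a10 (3.44, adjusted p = 0.00878) and Cyp4a31 (3.64, adjusted p = 0.00243) were called (background 0.527%).

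Cyp4a14 was not called by edgeR on the high-fat diet. Its log2 fold change was 2.18 in WT HF mice (95% confidence interval 0.58 to 3.78, adjusted p = 0.333) and 3.72 in KO HF mice (1.99 to 5.45, adjusted p = 0.0581). In KO HF mice it was called by DESeq2 (adjusted p = 0.000399, background 1.59%), by limma voom (adjusted p = 0.0123, background 0.484%) and by edgeR with at least 10 counts on average in every group (adjusted p = 0.0498). The call of Cyp4a10 in WT HF mice was lost without replicate 1, 3 or 4 of every group (0 members called each time), and 0 members were called in KO HF mice without replicate 2, 3 or 4. Without the 2 mice with pancreas markers, 2 members were called in WT HF mice.

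**Figure D2:**
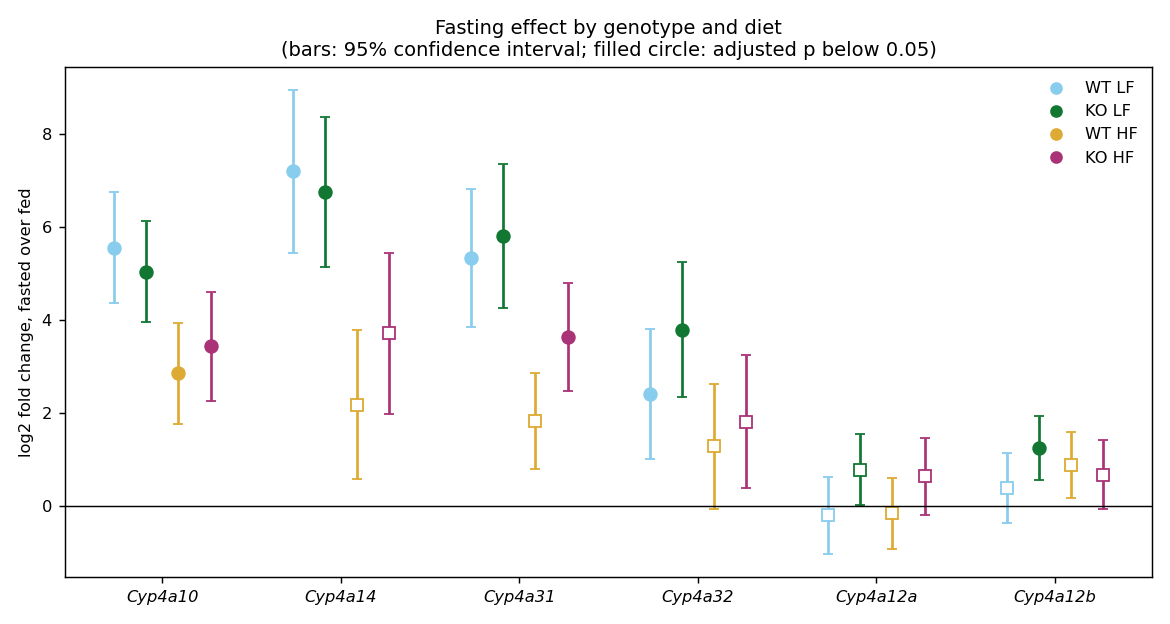
Log2 fold change of each Cyp4a gene between fasted and fed mice in the 4 combinations of genotype and diet, with 95% confidence intervals; filled circles mark an adjusted p below 0.05. The estimates of Cyp4a14, Cyp4a10 and Cyp4a31 ran from 5.04 to 7.20 on the low-fat diet and from 1.84 to 3.72 on the high-fat diet, and those of Cyp4a12a from −0.19 to 0.79.

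Whether 2 members differed in their response was tested on the log2 ratio of their CPM within each mouse, which does not depend on library size (two-sided permutation test with 100000 resamples of fed and fasted within genotype and diet, 15 pairs, 30 mice, Benjamini-Hochberg adjustment over the pairs). The grouping into responding and non-responding paralogs was known from these data, so these tests describe the size of the contrast. The ratio of Cyp4a14 to Cyp4a12a was 27.2-fold higher in fasted mice (4.76 on the log2 scale, 2.12 to 7.51 over the 4 combinations, permutation p = 1e-05, the smallest these resamples can give, adjusted p = 3.75e-05), and was 2.96 higher within lane 7 and 5.71 within lane 8. The ratio of Cyp4a10 to Cyp4a12a was 15.0-fold higher (permutation p = 1e-05). Of the 15 pairs, 14 had an adjusted p below 0.05.

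Near copies were compared in the same way. The ratio of Cyp4a10 to Cyp4a31 changed by 0.19 on the log2 scale (−0.47 to 0.89 over the 4 combinations, permutation p = 0.339), the 1 pair not called. With 5 counts added in place of 0.5 this change was 0.82 and was called (adjusted p = 0.000212 by permutation). The ratio of Cyp4a10 to Cyp4a32 was higher by 1.68 (permutation p = 0.00057, adjusted p = 0.000855), with at most 42 counts of Cyp4a32 behind it, and its call was lost within lane 8 (1.41, adjusted p = 0.201). The ratio of Cyp4a12a to Cyp4a12b changed by −0.52, lower in fasted mice in 4 of 4 combinations (permutation p = 0.00017, adjusted p = 0.000283). It changed by −0.53 within lane 7 (adjusted p = 0.0169) and by −0.52 within lane 8 (adjusted p = 0.116). Between the PPARα targets, the ratio of Cyp4a10 to Cyp4a14 changed by −0.86 (permutation p = 0.00997, adjusted p = 0.0107), with the direction in 3 of 4 combinations, and this call was lost without replicate 4 (−0.51, adjusted p = 0.148) and within lane 7 (−0.08, adjusted p = 0.884).

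The 6 genes summed to 1144 ± 707 CPM in fed mice (SD, n = 15) and to 17952 ± 11861 CPM in fasted mice (n = 15). Cyp4a12a and Cyp4a12b together took 45.8% of the counts on the 6 genes in fed mice (6.51 to 82.2%) and 5.46% in fasted mice (1.58 to 29.7%). Cyp4a14 took 41.7% in fed mice (9.22 to 84.5%) and 78.6% in fasted mice (48.6 to 89.6%). In WT LF fed mice the Cyp4a12 pair held the larger share, 71.3 ± 11.5% (n = 3), and in WT HF fed mice Cyp4a14 did, 70.5 ± 11.0% (n = 4).

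The second comparison set the high-fat against the low-fat diet. In fed mice Cyp4a14, Cyp4a31 and Cyp4a10 had estimates above 0 on the high-fat diet. Cyp4a14 had 999 ± 729 CPM in HF fed mice (SD, n = 8) against 188 ± 194 CPM in LF fed mice (n = 7), and Cyp4a10 had 184 ± 59.7 against 81.3 ± 56.2 CPM. The log2 fold changes were 2.34 for Cyp4a14 (95% confidence interval 1.15 to 3.53, adjusted p = 0.129), 1.76 for Cyp4a31 (0.60 to 2.93, adjusted p = 0.212), 1.24 for Cyp4a10 (0.43 to 2.05, adjusted p = 0.251), and that of Cyp4a32 was 0.31 (−0.82 to 1.44, adjusted p = 0.944). By edgeR's quasi-likelihood test 0 of 6 members were called, where 0.268% of all genes were called, with 4 at an unadjusted p below 0.05 (9.25% of all genes). DESeq2 called 2 members (background 0.921%) and limma voom 1 (background 0.354%).

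In fasted mice the direction of the estimates turned. Cyp4a31 was lower on the high-fat diet by a log2 fold change of −1.07 (adjusted p = 0.0369), with 33.7 ± 25.6 CPM in HF fasted mice (SD, n = 7) against 69.7 ± 17.3 CPM in LF fasted mice (n = 8), and was the only member called at a background of 6.65% (edgeR's quasi-likelihood test). The estimates were −1.69 for Cyp4a14 (95% confidence interval −2.87 to −0.51, adjusted p = 0.0981), −1.24 for Cyp4a32 (adjusted p = 0.0632) and −0.91 for Cyp4a10 (adjusted p = 0.189). Cyp4a12b was the 1 member called when fed and fasted mice were averaged, lower on the high-fat diet by a log2 fold change of −0.68 (SE 0.18, adjusted p = 0.0293, background 3.49%). Its estimate was −0.66 in fed mice and −0.70 in fasted mice, the same sign in both, unlike that of Cyp4a14. The call of Cyp4a31 in fasted mice ended without any 1 of the 4 replicate numbers (adjusted p from 0.0563 to 0.139 by edgeR), while that of Cyp4a32 was gained without replicate 4 (adjusted p = 0.0377). The call of Cyp4a12b in the average over fed and fasted mice was lost in 6 of 15 alternatives. Among these were the fits without replicate 2 or 4 and the fit with all 32 mice (adjusted p = 0.409 by edgeR).

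**Figure D3:**
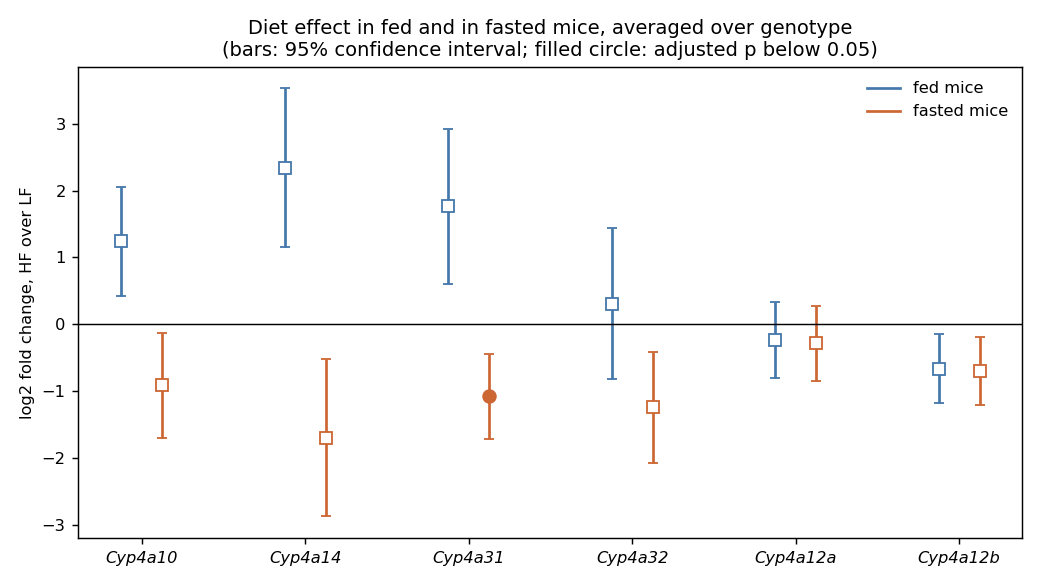
Log2 fold change of each Cyp4a gene between the high-fat and the low-fat diet in fed (blue) and fasted (orange) mice, averaged over genotype, with 95% confidence intervals; the filled circle marks an adjusted p below 0.05. Estimates of Cyp4a10, Cyp4a14 and Cyp4a31 were above 0 in fed mice (1.24 to 2.34) and below 0 in fasted mice (−1.69 to −0.91), and those of Cyp4a12b were −0.66 and −0.70.

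The difference of the fasting effect between diets was tested directly as an interaction. It was called in 3 of 6 members, where 2.46% of all genes were called. The fasting effect was smaller on the high-fat diet by 4.03 for Cyp4a14 (log2 difference −4.03, SE 0.81, adjusted p = 0.0116), by 2.84 for Cyp4a31 (−2.84, SE 0.64, adjusted p = 0.0111) and by 2.15 for Cyp4a10 (−2.15, SE 0.55, adjusted p = 0.0386) in edgeR's quasi-likelihood test. Cyp4a32 had a difference of −1.55 (adjusted p = 0.296), and Cyp4a12a and Cyp4a12b had differences of −0.05 and −0.03, with 95% confidence intervals from −0.84 to 0.75 and from −0.76 to 0.69. Without replicate 1, 3 or 4 of every group, 1, 0 and 0 members were called, with differences of −3.72 to −4.03 for Cyp4a14. With all 32 mice, or with WT LF fed replicate 2 put back, 0 members were called. Cyp4a10 lost its call with lane as a term (−2.11, adjusted p = 0.0627 by edgeR) and in 9 of 15 alternatives in all, and Cyp4a31 lost its call in limma voom (−2.94, adjusted p = 0.125).

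The third comparison set KO against WT, the question of the study. No member was called in any of the 5 contrasts, averaged over diet and feeding or within 1 condition, where 1 gene (Acadm, 0.00865% of genes tested) was called in each by edgeR's quasi-likelihood test. DESeq2 (0.00867% of genes in the average, LF fed and HF fasted mice, 0.0173% in LF fasted and HF fed mice) and limma voom (0.00865% in each) called 0 members as well. At an unadjusted p below 0.05 there was 1 member in the average (2.9% of all genes), 0 in LF fed (3.89%), 0 in LF fasted (5.91%), 1 in HF fed (2.73%) and 2 in HF fasted mice (2.49%). Averaged over conditions, the estimates ran from −0.07 for Cyp4a14 (95% confidence interval −0.91 to 0.76) to 0.48 for Cyp4a12b (0.12 to 0.84), and that of Cyp4a10 was 0.11 (−0.45 to 0.68).

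Cyp4a12b had the smallest unadjusted p in this comparison. In HF fed mice its 4 WT values (31.3 to 75.8 CPM) and 4 KO values (73.1 to 173 CPM) overlapped in 1 mouse of each group, with a log2 fold change of 1.05 (95% confidence interval 0.35 to 1.76, unadjusted p = 0.0055 and adjusted p = 0.9999 by edgeR). In HF fasted mice the log2 fold change was 0.85 (0.10 to 1.59), and that of Cyp4a31 was 1.11 (0.17 to 2.05). The fasting effect did not pass the test of a difference between genotypes in any member, with 0 members called by edgeR, DESeq2 and limma voom at a background of 0.0% each, and 1 at an unadjusted p below 0.05 (4.95% of all genes; Cyp4a12a, 0.89, 95% confidence interval 0.09 to 1.68).

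Mice of one group differed, and it was asked whether a mouse with more of one member had more of another. The residuals of log2 CPM from the group means were correlated among the 15 fed and the 15 fasted mice separately (two-sided permutation within groups, 30 correlations, Benjamini-Hochberg adjustment over them). By Pearson's r, 7 of 15 pairs had an adjusted p below 0.05 in fasted mice. They were the 6 pairs among Cyp4a10, Cyp4a14, Cyp4a31 and Cyp4a32 and the pair Cyp4a12a and Cyp4a12b. In fed mice 2 of 15 pairs did, Cyp4a10 with Cyp4a14 and Cyp4a12a with Cyp4a12b. By Spearman's rho the same pairs passed in fed mice. In fasted mice only Cyp4a14 with Cyp4a31 (adjusted permutation p = 0.0405) and Cyp4a12a with Cyp4a12b (0.006) passed by rho, and Cyp4a10 with Cyp4a14 (0.0948) did not.

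For Cyp4a10 and Cyp4a14 Pearson's r was 0.91 in fasted mice (permutation p = 0.00106, Spearman's rho 0.75, permutation p = 0.0221) and 0.85 in fed mice (permutation p = 0.00424, rho 0.79, permutation p = 0.00503). For Cyp4a12a and Cyp4a12b r was 0.89 in fasted mice (permutation p = 0.00014, rho 0.86, permutation p = 0.0002) and 0.84 in fed mice (permutation p = 0.00219, rho 0.85, permutation p = 0.00151). Across the 2 sets no pair was called: Cyp4a14 and Cyp4a12a had r = 0.14 in fasted mice (permutation p = 0.642) and r = 0.10 in fed mice (permutation p = 0.732). After the 2 mice farthest from the median were left out, 0 of 30 correlations had an adjusted p below 0.05, and r was 0.77 for Cyp4a10 and Cyp4a14 and 0.86 for Cyp4a12a and Cyp4a12b in fasted mice. These correlations had 2 mice fewer, so the loss of the calls does not show by itself that r rested on the mice left out. Pairs of near copies also share reads, and their part in r was not tested.

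**Figure D4:**
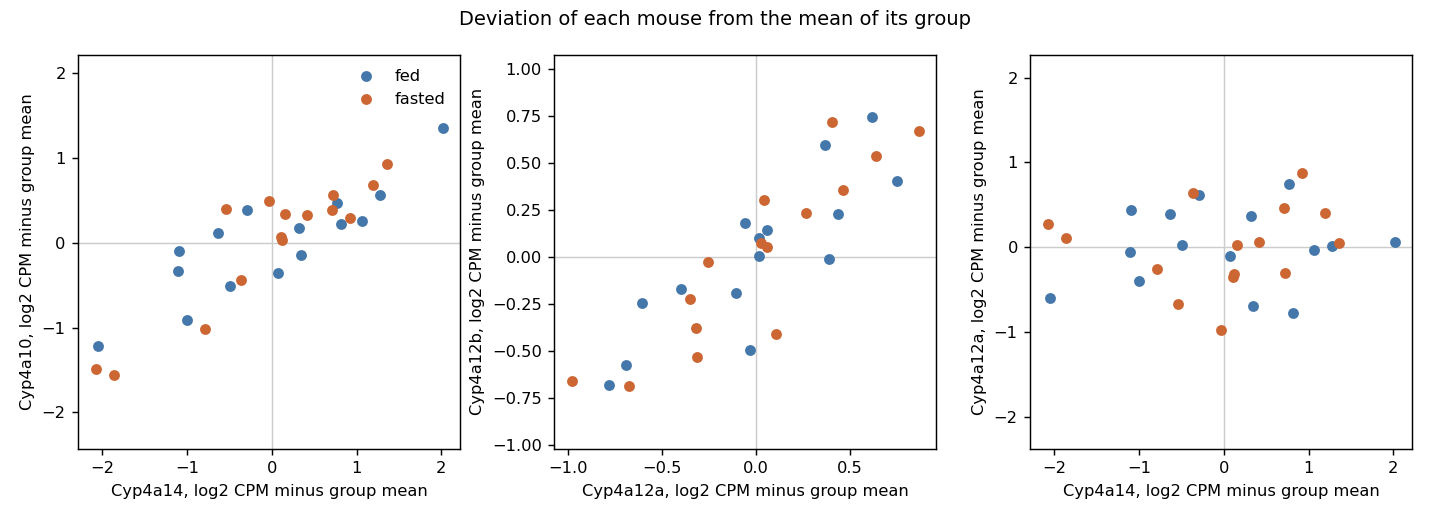
Residuals of log2 CPM from the group mean for 3 pairs of members, 1 point per mouse (blue fed, orange fasted). Cyp4a14 and Cyp4a10 (r = 0.85 in fed and 0.91 in fasted mice) and Cyp4a12a and Cyp4a12b (0.84 and 0.89) lie along a line, and Cyp4a14 and Cyp4a12a (0.10 and 0.14) do not.

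Over all 30 mice, the genes whose log2 CPM was most like that of Cyp4a14 among 11560 other genes included Acot1, a cytosolic acyl-CoA thioesterase (Pearson's r = 0.95), Eci2, a peroxisomal enoyl-CoA isomerase (0.94), Acot12, an acetyl-CoA thioesterase (0.94), and Retsat, a retinol saturase (0.93). Within the family Cyp4a14 had r = 0.97 with Cyp4a10, 0.96 with Cyp4a31, 0.80 with Cyp4a32, 0.41 with Cyp4a12b and 0.26 with Cyp4a12a. The genes most like Cyp4a12a reached lower values, with Denr, a translation factor, at 0.74, Scarna17, a small Cajal body RNA, at 0.70, Qsox1, a sulfhydryl oxidase, at 0.69, Slc48a1, a heme transporter, at 0.69 and Banp, a nuclear protein, at 0.68, and Cyp4a12b at 0.76. These correlations describe mice that share the feeding state and the diet of their groups and are given without a test.

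Other genes of the pathway are described by counts for lists drawn up with results of these data known. Of 24 targets of PPARα that fasting is known to raise, 22 were called higher in fasted mice (background 9.77%) and 0 lower by edgeR's quasi-likelihood test. Their median log2 fold change was 1.29 against −0.0022 for all genes tested. The largest were the acyl-CoA thioesterases Acot3 (3.68), Acot1 (3.66) and Acot2 (3.11) and the peroxisomal bifunctional enzyme Ehhadh (3.05), all below Cyp4a14, Cyp4a10 and Cyp4a31. The 2 not called, named after their values were seen, were Pdk4 (0.32) and the fatty acid binding protein Fabp1 (−0.08). In the test of the difference between diets 10 of the 24 were called (background 2.46%), all with a smaller fasting effect on the high-fat diet. None were called between genotypes. The count of 10 was 0 with all 32 mice, 6 with WT LF fed replicate 2 put back, 0 without replicate 1, 0 without replicate 3, 1 without replicate 4, 5 without a filter, 5 with a replicate block, 3 without the mice with pancreas markers and 12 by DESeq2.

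Fatty acid hydroxylases outside the Cyp4a group had smaller estimates than Cyp4a14, Cyp4a10 and Cyp4a31. Of 7 tested, 2 were called higher and 1 lower in fasted mice (background 18.9% in either direction, 9.77% higher). They were Cyp2e1, which also hydroxylates fatty acids next to the terminal carbon (0.93, SE 0.11), Cyp4f15 (0.31) and Cyp4f14, an omega-hydroxylase of leukotrienes and fatty acids (−1.32, SE 0.12). The call of Cyp4f15 (adjusted p = 0.0293 by edgeR) was lost in 7 of 17 alternatives, among them all 32 mice, limma voom, both lanes, and without replicate 2, 3 or 4. Cyp2u1 had −0.34 and was not called. Among 4 genes for the P450 reductase, forms of cytochrome b5 and a cytochrome b5 reductase, the P450 reductase Por was higher in fasted mice (2.36, SE 0.14). Cyb5b (−1.43, SE 0.11) and Cyb5r3 (−0.97, SE 0.10) were lower, and Cyb5a (0.14) was not called. Por also had a fasting effect that was smaller on the high-fat diet (−2.02, adjusted p = 7.99e-05 by edgeR), as Cyp4a14 did.

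Of 22 genes that act on the products of omega-hydroxylation (alcohol and aldehyde dehydrogenases, and enzymes of peroxisomal import, oxidation and release), 14 were called higher and 3 lower in fasted mice (background 18.9% in either direction, 9.77% higher). Their median log2 fold change was 0.93. This list shares 6 genes with that of the PPARα targets. The largest estimates were 3.68 for Acot3, 3.05 for Ehhadh, −1.88 for Nudt7, a peroxisomal coenzyme A diphosphatase, and 1.84 for the carnitine acetyltransferase Crat.

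Of 12 genes known to be expressed more in male liver (Cyp4a12a and Cyp4a12b among them), 2 were called higher in fasted mice, Cyp4a12b (0.81) and Cyp2d9 (0.45), and 5 lower (background 18.9% in either direction, 9.77% higher). The largest were the steroid dehydrogenase Hsd3b5 (−2.94), Selenbp2 (−1.44), Cyp4a12b (0.81) and the fatty acid elongase Elovl3 (−0.68). Of 9 genes of growth hormone signalling, 0 were called higher and 3 lower, against the same background. Cish, a suppressor of cytokine signalling, was at −1.89 and the growth hormone receptor Ghr at −0.66, while Socs2 (−0.83) and Bcl6 (−0.55) were not called. Calls in the male-biased list ranged from 1 to 7 genes over the alternative settings.

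**Figure D5:**
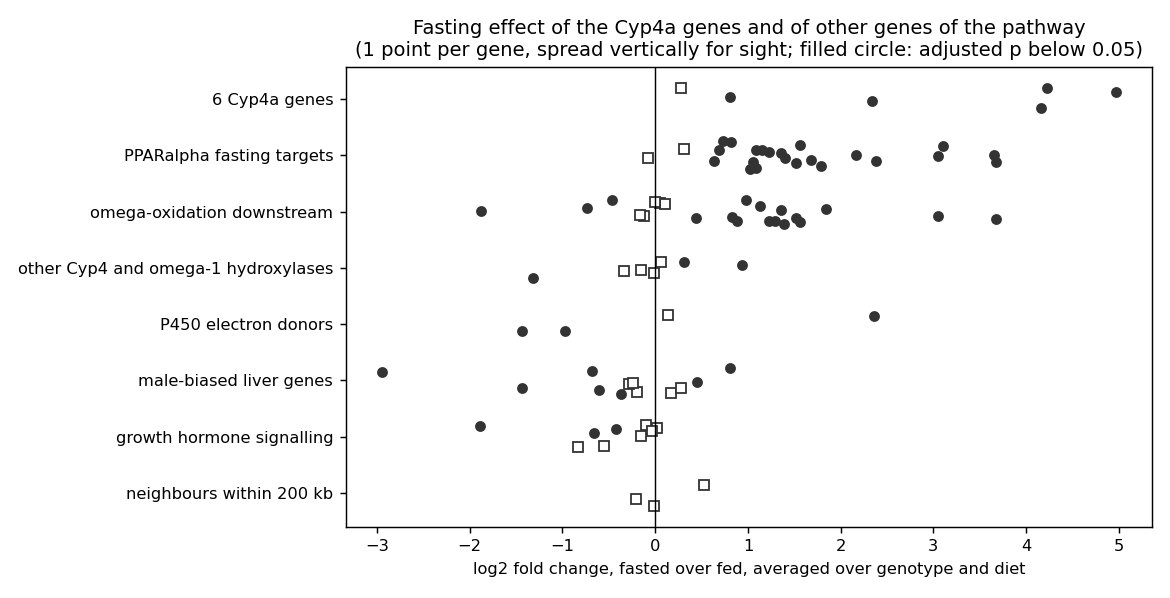
Log2 fold change between fasted and fed mice, averaged over genotype and diet, for the 6 Cyp4a genes, 6 lists of related genes and the neighbours within 200 kb, 1 point per gene; filled circles mark an adjusted p below 0.05. Cyp4a14 (4.97), Cyp4a10 (4.22) and Cyp4a31 (4.16) lie beyond the largest PPARα target (Acot3, 3.68), and Cyp4a12a (0.28) lies among the genes not called.

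Of 20 other genes annotated within 200 kb of a member, 10 were in the count table and 3 were tested. None of the 3 was called with fasting by edgeR's quasi-likelihood test (background 18.9%), and 2 had an unadjusted p below 0.05 (29.4% of all genes). Atpaf1 had a log2 fold change of 0.53 (adjusted p = 0.122), Efcab14 −0.21 (adjusted p = 0.157) and Cyp4b1, another fatty acid hydroxylase, −0.01 (adjusted p = 0.977).

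The 2 mice left out, scaled with all 32 mice, had Cyp4a levels unlike their groups. WT LF fed replicate 2 had 1372 CPM of Cyp4a14 (4349 counts), against 54.0 to 616 CPM in the other LF fed mice, and 20.5 CPM of Cyp4a31 against at most 2.37 CPM. Its Cyp4a10, at 103 CPM, was within the range of those mice, and its Cyp4a12a (62.1 CPM) and Cyp4a12b (19.9 CPM) were below it. KO HF fasted replicate 4, in which heart markers summed to 41775 CPM, had 33.0 CPM of Cyp4a14, 5.44 CPM of Cyp4a10, 5.12 CPM of Cyp4a12a and 0 counts of Cyp4a31 and Cyp4a32, for which 3 counts would be 0.960 CPM.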

How the data were processed

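RNA of 32 mice, from liver according to the study's methods, was measured by 3′ RNA sequencing of single reads of 50 bases. The library of KO HF fasted replicate 4 held heart markers that summed to 41775 CPM. The deposited table holds whole-number counts per gene, not normalised, which the authors obtained with HISAT 0.1.5, SAMtools 1.2 and HTSeq 0.6.1p1 in union mode on GRCm38. Annotation release is given as Ensembl 82 in the study's methods but as 76 in the table's name, and pool size as 8 per lane in the methods but as 16 in the labels. HTSeq by default leaves out reads that align equally well to several genes, so that near-identical paralogs can lose counts. Groups, replicate numbers and lanes came from the labels. Symbols and positions were taken from GENCODE M21, in which 19913 of 20076 identifiers were found (0.125% of counts fell on the 163 without a symbol). Total counts of 2031053 to 4292200 per mouse make 3 counts about 1 CPM, and such a floor covers counting error only.

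One model with 8 groups was fitted to 30 mice with edgeR 4.0.16 in R 4.3.3 (TMM scaling, filterByExpr, robust quasi-likelihood F test, Benjamini-Hochberg adjustment over 11566 genes), with contrasts for fasting, diet, genotype and their interactions. Checked alternatives were DESeq2 1.42.0, limma 3.58.1 voom, other scaling and filters, other sets of mice, lane and replicate terms, and summed paralog counts. Ratios of a pair of members (0.5 counts added) were tested with 100000 permutations of the feeding state within genotype and diet, and 30 within-group correlations of members with 100000 permutations of mice. The fitting was tested on simulated data. Within groups the 48 pairs of mice differed by more than counting noise (smallest chi-square per gene 4.17), so none were merged. The labels do not say whether mice shared a litter or cage, and p-values measure the spread between these mice.

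The genes, the 2 mice left out and the lists were chosen with earlier results of these data known. Named from each list were up to 4 genes with the largest absolute fasting estimate and those called between genotypes, and for Cyp4a14 and Cyp4a12a the 5 most correlated genes, of which 1 is not reported here.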

Additional observations from a re-analysis of the deposited data

Results flagged for a closer look

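Single mice stood apart in 6 of the 36 groups of 4 mice examined (Dixon's test at 95%, which chance passes in about 1 of 20 groups). Cyp4a10 was low in WT HF fed replicate 2 (145 CPM against 224 to 241 in the 3 others) and in KO LF fasted replicate 3 (1444 CPM against 3605 to 3856). Cyp4a14 was high in KO LF fed replicate 2 (611 CPM against 70.4 to 158), the mouse with the highest Cyp4a10 of its group (204 CPM), and low in WT LF fasted replicate 4 (15026 CPM against 20793 to 21509). Cyp4a32 was high in KO HF fed replicate 3 (2.40 CPM, at most 8 counts in that group) and low in KO LF fasted replicate 2 (10.8 CPM against 14.5 to 14.8).

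The fasting effect differed between the diets in 3 members, with log2 differences of −2.15 for Cyp4a10, −4.03 for Cyp4a14 and −2.84 for Cyp4a31 in the interaction test of edgeR (adjusted p = 0.0386, 0.0116 and 0.0111). These calls were lost in 9 of 15 alternatives for Cyp4a10, among them lane as a term, and in all 3 members with all 32 mice.

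In WT LF fed replicate 2, which entered only the fits with 31 or 32 mice, Cyp4a14 reached 1372 CPM and Cyp4a31 20.5 CPM (scaled by TMM over all 32 mice), where the other LF fed mice reached at most 616 and 2.37 CPM and 3 counts were 0.946 CPM.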

How the results depend on the processing

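Of 1746 recomputed values, 1505 were single estimates or counts of genes called in a list, and 1351 of these stayed the same. For an estimate this means the same direction and side of the threshold, for a list count a value within 1.5 times the main count. Among the estimates 96 lost and 23 gained a call and 19 changed direction, and 16 list counts moved further. Of the 241 other counts, 202 stayed within 1.5 times the main count. The average fasting effect of Cyp4a10, Cyp4a14 and Cyp4a31 stayed called wherever the gene passed the filter. That of Cyp4a32 did so too, as a description only, since it passed the filter through fasted mice. The cause of the changes below was not tested. The counts of members below are given without the share of all genes called under the same setting, which differs between settings. They show only how the calls of members moved.

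With all 32 mice, among them the library with the heart markers, the number of members called was 0 for fasting in WT HF, fasting in KO HF, diet (average), diet in fasted mice and the difference between diets. With only KO HF fasted replicate 4 left out it was 0 for the last 3. DESeq2 called 2 members for fasting in WT HF, 2 for diet in fed and 4 for diet in fasted mice, and limma voom 1 and 5 for the last 2. Without a filter the diet average and diet in fasted mice gave 0. With at least 10 counts on average in every group, which removes Cyp4a31 and Cyp4a32, fasting gave 3 (average), 2 (WT LF) and 3 (KO LF), and diet in fasted mice 0. Summing near-identical paralogs, with each sum's call given to its members, gave 3 for fasting in WT HF and 0 for diet (average, and in fasted mice). Without the mice with pancreas markers, chosen after seeing the data, as the lanes were, fasting in WT HF gave 2 and diet in fasted mice 0. Without the mice of one replicate number, counts ranged from 0 to 1 for fasting in WT HF, from 0 to 2 in KO HF, from 0 to 1 for diet (average) and in fasted mice, and from 0 to 3 for the difference between diets (1 without number 1, 0 without 3 or 4). Correlations called by Pearson's r fell from 9 to 0 without the 2 farthest mice.

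Direction turned only in estimates that were not called. Cyp4a12a with fasting in WT LF was 0.15 with 32 and 0.15 with 31 mice, and −0.54 to 0.39 without one replicate number. In WT HF it was 0.081 with paralogs summed and −0.47 to 0.20. Cyp4a12b with fasting in WT LF was −0.0058 with paralogs summed. Cyp4a31 with diet (average) was −0.23 and −0.12 with 32 and 31 mice, and Cyp4a32 0.16 with paralogs summed. Cyp4a32 with diet in fed mice was −0.26 to 1.11. The difference between diets was 0.071 for Cyp4a12a and 0.19 for Cyp4a12b without pancreas mice, and −0.19 to 0.093 and −0.22 to 0.29 without one replicate number. Cyp4a14 between genotypes (average) was −0.66 to 0.15. In lane 7, fasting gave 0.28 for Cyp2u1 and 0.18 for Bcl6.

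Replicate numbers were shared by name only, since residuals of same-numbered mice had a median correlation of 0.0043 over 98 pairs, of which 2 exceeded 0.1. The fit with a replicate block moved no count of members by more than 1.5 times, with 2 members called for the difference between diets, where Cyp4a10 was lost (−2.17, adjusted p = 0.0593), and 0.0094 for Cyp4a12b. Low counts limit Cyp4a32 most, with at most 42 counts.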

Other observations

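The ratio of Cyp4a12b to Cyp4a12a counts was lowest in WT HF fed mice, at 0.196 ± 0.035 (SD, n = 4, 0.146 to 0.226). It was 0.427 ± 0.097 in KO HF fed mice (n = 4, lowest 0.303), 0.397 ± 0.080 in WT LF fed mice (n = 3, lowest 0.307) and 0.404 ± 0.055 in KO LF fed mice (n = 4, lowest 0.345), so that WT HF fed mice did not overlap with any other fed group. In fasted mice the group means were 0.569 (WT LF), 0.563 (KO LF), 0.405 (WT HF) and 0.431 (KO HF). This pattern was noticed in the data and was not tested.

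The 2 HF fasted mice with the least Cyp4a14 were low for other targets of PPARα as well. KO HF fasted replicate 1 had the lowest value of its group for 24 of 24 listed targets and WT HF fasted replicate 2 for 23 of 24. The share of all genes that were lowest in each of these mice was not worked out. Both mice were picked for low Cyp4a14, so the counts are a description only. The Acot1 levels of these 2 mice were 74.4 and 110 CPM, against 228 to 514 CPM in the 5 other HF fasted mice and 35.5 to 76.8 CPM in the HF fed mice. The hepatocyte markers summed to 51263 and 52934 CPM in these 2 mice, within the range of the rest. WT HF fasted replicate 2 carried acinar pancreas markers (summing to 18486 CPM), while KO HF fasted replicate 1 was not among the 2 mice above 61.2 CPM. The part of these markers in the low values was not tested.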
